A study of Mus musculus with 8 samples.

Results

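The interaction between genotype and injury in the mouse kidney was described for 15650 of 55919 genes, from all 8 libraries of the study. For each gene it is the injury response of Tet1 knockout mice minus the injury response of wildtype mice, where an injury response is the mean of the injured libraries minus the mean of the non-injured libraries on the log2(FPKM + 0.1) scale. FPKM are fragment counts divided by gene length in kilobases and by a measure of library size, and a gene entered if 2 or more libraries held 1 FPKM or more of it. A value above 0 thus marks a gene that went further up, or less far down, after injury in Tet1 KO than in WT, and a value of 1 is a 2-fold difference between the responses.

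TET1 is a dioxygenase that oxidizes 5-methylcytosine in DNA to 5-hydroxymethylcytosine, a step of active demethylation. Clamping and then releasing the renal pedicle (ischemia and reperfusion, I/R) kills and dedifferentiates tubular epithelium, and the injured kidney is known for induction of damage markers and inflammatory genes and for loss of transporter and metabolic gene expression. The comparison asked which of these changes were stronger or weaker when Tet1 was missing.

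All mice were female, of the strain C57BL/6 x 129S4/SvJae, and either WT or Tet1 KO. They are described as age matched and no age is given. Non-injured whole kidneys (NI) formed the groups WT-NI and KO-NI. Injured whole kidneys, taken 3 days after the left renal pedicle had been clamped for 45 min, formed WT-I/R 3D and its knockout counterpart KO-I/R 3D. Each group had 2 libraries, each made from pooled RNA of 3 mice. Whether the non-injured kidneys came from the injured mice is not stated in the sources used here, and p-values measure the spread between pools.

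Tet1 itself was read at 0.378 and 0.323 FPKM in WT-NI, 0.551 and 0.382 in KO-NI, 0.243 and 0.313 in WT-I/R 3D and 0.189 and 0.158 in KO-I/R 3D, from 51 to 96 reads a library. These whole-gene values lay below the filter and do not show whether the deleted part of the gene was transcribed, so they do not check the genotype labels. The libraries held between 13961281 and 18480858 reads in genes. KO-NI replicate 1 stood apart: 10.9% of its reads fell in mitochondrial genes, against 4.76% to 7.70% in the other libraries, and a 2-fold gap to KO-NI replicate 2 was exceeded by 1804 genes, where the pairs of the other groups had 723 to 838 such genes. Values that rest on it are given with and without it. The marker genes of every tubule segment were read in all libraries, with summed levels of 24222 to 37878 FPKM for 42 proximal tubule markers and 2996 to 3739 FPKM for 19 loop of Henle markers in the non-injured kidneys.

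The injury responses of WT and Tet1 KO were correlated across genes, and no single gene passed the test for a difference between them. In WT, 1393 genes (8.90% of those tested) rose and 1322 (8.45%) fell after injury, and in Tet1 KO 2808 (17.9%) rose and 3043 (19.4%) fell (limma, adjusted p under 0.05 and a log2 difference beyond 0.5). For the interaction, 0 genes (0%) were called larger and 0 (0%) smaller in KO, with a smallest adjusted p of 0.390 (limma, Benjamini-Hochberg). At an unadjusted p under 0.05 and a log2 difference beyond 0.5, 527 genes (3.37%) had a larger and 895 (5.72%) a smaller value in KO. Limma voom on the recovered reads also called 0 genes in either direction, with 629 and 1089 genes at an unadjusted p under 0.05. When FPKM were rescaled to TPM, which gives each library the same sum, the median of all genes moved from -0.01 to 0.21 and the same unadjusted counts became 1115 larger (7.08%) and 409 smaller (2.60%). Without KO-NI replicate 1 they were 681 (4.40%) and 1137 (7.35%). The adjusted calls stayed at 0 and 0 when any 1 library other than KO-NI replicate 2 was left out. Without KO-NI replicate 2, which leaves the divergent library as the lone KO-NI sample, 182 genes were called larger and 50 smaller. Directions below are therefore meant relative to the other genes, whose median is near 0 in the main fit. TPM values are printed as they are, so they are to be read against 0.21 and not against 0. Across the 15650 genes the WT and KO responses, which share no library, had a Pearson correlation of 0.77 (0.75 without KO-NI replicate 1).

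**Figure D1:**
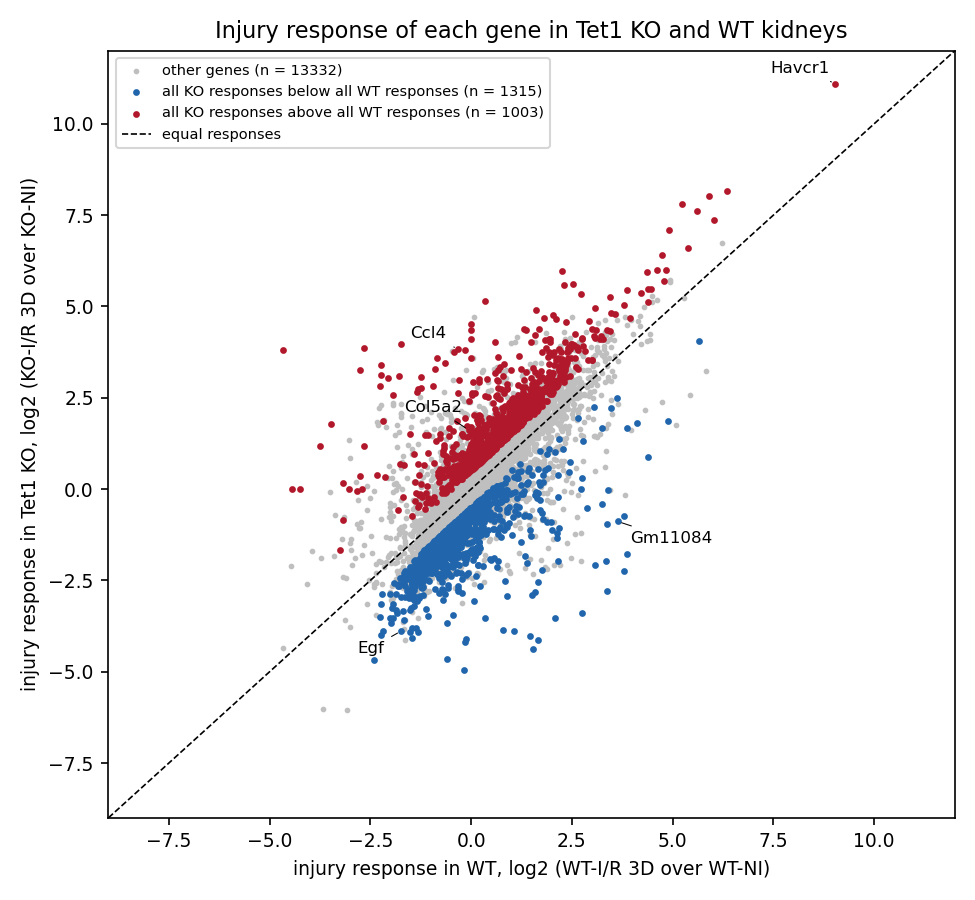
Injury response of each of 15650 genes in WT (x axis) and Tet1 KO (y axis), both log2 of I/R 3D over NI on FPKM + 0.1, with the dashed line at equal responses. Red marks the 1003 genes whose 4 KO responses all lie above the 4 WT responses and blue the 1315 genes whose KO responses all lie below; most genes of both colours lie on the same side of 0 in both genotypes.

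With 2 libraries a group, each genotype has 4 pairwise injury responses, and for 1003 genes (6.41%) all 4 KO responses lay above all 4 WT responses with a difference beyond 0.5, while for 1315 genes (8.40%) all lay below. These are called genes with separate responses. An interaction has a part from non-injured and a part from injured kidneys. Among the 1315 genes with the lower KO response the injured part was the bigger in 1079 (82.1%), with a median KO to WT difference of -0.67 in injured and 0.16 in non-injured kidneys. Among the 1003 genes with the higher KO response the injured part was the bigger in 529 (52.7%), with medians of 0.47 in injured and -0.42 in non-injured kidneys (-0.28 without KO-NI replicate 1). Within these sets, which were picked by the interaction in the same libraries, the lower responses came mainly from lower levels in injured KO kidneys. The higher responses came from both higher levels after injury and lower levels before it. The matching shares over all genes were not counted. In the direct comparisons of genotypes limma called 0 genes (0%) in either direction in non-injured and in injured kidneys, where 260 and 402 genes (1.66% and 2.57%) without injury and 503 and 1201 genes (3.21% and 7.67%) with injury were higher and lower in KO at an unadjusted p under 0.05. Limma voom called 87 genes higher and 298 lower in injured KO kidneys. Without KO-NI replicate 1, whose distance from replicate 2 enters the shared estimate of spread, limma called 109 higher and 546 lower there.

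The marker genes of tubular damage had the larger response in Tet1 KO. Of 42 tested genes of tubular injury and repair, 36 had an interaction above 0 (49.4% of all genes did). The unadjusted threshold was passed by 20 as larger and 0 as smaller in KO, against 3.37% and 5.72% of all genes. Separate, larger responses were found in 21, against 6.41% of all genes. The counts of every list below are to be read against these shares, and against 8.40% for separate, smaller responses. The median response of the list was 2.07 in WT and 2.81 in KO (log2), and the median interaction was 0.79 (0.80 without KO-NI replicate 1), against -0.01 over all genes tested. After injury 32 of the genes rose in WT and 38 in KO, against 8.90% and 17.9% of all genes tested.

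Havcr1 encodes KIM-1, a phosphatidylserine receptor that injured proximal tubule cells put on their surface. It was read at 0.271 and 0.185 FPKM in WT-NI, 0.153 and 0.0315 in KO-NI, 129.7 and 224 in WT-I/R 3D and 375 and 426 in KO-I/R 3D. The injured groups did not overlap, the KO libraries being the higher, and the interaction was 2.06 ± 0.52 (log2, 2.54 without KO-NI replicate 1). Here and for every interaction below, ± gives the SE from limma (n = 2 libraries a group). It pools the spread of all groups and is drawn towards a trend over all genes. Because the non-injured values are near the pseudocount, part of the Havcr1 interaction depends on it, while the difference between the injured groups was 1.23. Spp1, osteopontin, was the most abundant gene of the list at 1037 and 1091 FPKM in WT-NI, 1145 and 1023 in KO-NI, 4177 and 6703 in WT-I/R 3D and 11379 and 12999.8 in KO-I/R 3D. Its non-injured groups overlapped, the injured ones did not, and the interaction was 1.18 ± 0.37. Timp1, an inhibitor of matrix metalloproteinases, had 0.548 and 0.241 FPKM in WT-NI, 0.0999 and 0.164 in KO-NI, 23.3 and 33.3 in WT-I/R 3D and 45.3 and 79.9 in KO-I/R 3D. It was at once lowest in KO-NI and highest in KO-I/R 3D, with an interaction of 2.14 ± 0.56 (1.94 without KO-NI replicate 1). Atf3, a stress-induced transcription factor, showed the same order, with 0.872 and 1.03 FPKM in WT-NI, 0.412 and 0.474 in KO-NI, 3.88 and 7.21 in WT-I/R 3D and 13.4 and 12.2 in KO-I/R 3D and an interaction of 2.21 ± 0.41. With a pseudocount of 1 in place of 0.1 the interactions were 1.40 for Havcr1, 1.38 for Timp1 and 1.56 for Atf3.

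Several other genes with the largest positive interactions are known from stressed or injured epithelium. Gdf15, a stress-induced cytokine, had 3.00 and 4.70 FPKM in WT-NI, 1.48 and 3.66 in KO-NI, 9.67 and 17.2 in WT-I/R 3D and 27.5 and 38.6 in KO-I/R 3D, and the interaction of 1.99 ± 0.66 became 1.37 without KO-NI replicate 1. Krt20, a keratin of injured tubules, was listed at 0 in both KO-NI libraries and, after injury, was read at 14.0 and 22.8 FPKM in the WT and 24.2 and 34.0 FPKM in the KO libraries, so no fold is given for its KO response. Sprr2f, a small proline-rich protein of cornified epithelia, was at or near 0 in all non-injured libraries and came to 4.39 and 6.77 FPKM in injured WT and to 17.3 and 28.2 FPKM in injured KO kidneys. In both, the injured groups did not overlap. Serpina3n, an extracellular serine protease inhibitor, was high in 1 KO library only: injured WT kidneys had 10.7 and 10.6 FPKM and injured KO kidneys 14.6 and 55.0. Fgb, the beta chain of fibrinogen, had 0.548 and 0.787 FPKM in WT-NI, 0.605 and 0.325 in KO-NI, 1.86 and 3.75 in WT-I/R 3D and 5.81 and 10.4 in KO-I/R 3D, with an interaction of 1.99 ± 0.64. In its list of 22 tested fibrinogen, plasminogen and protease genes, 19 lay above 0, 8 passed the unadjusted threshold as larger and 1 as smaller, with a median of 0.71.

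**Figure D2:**
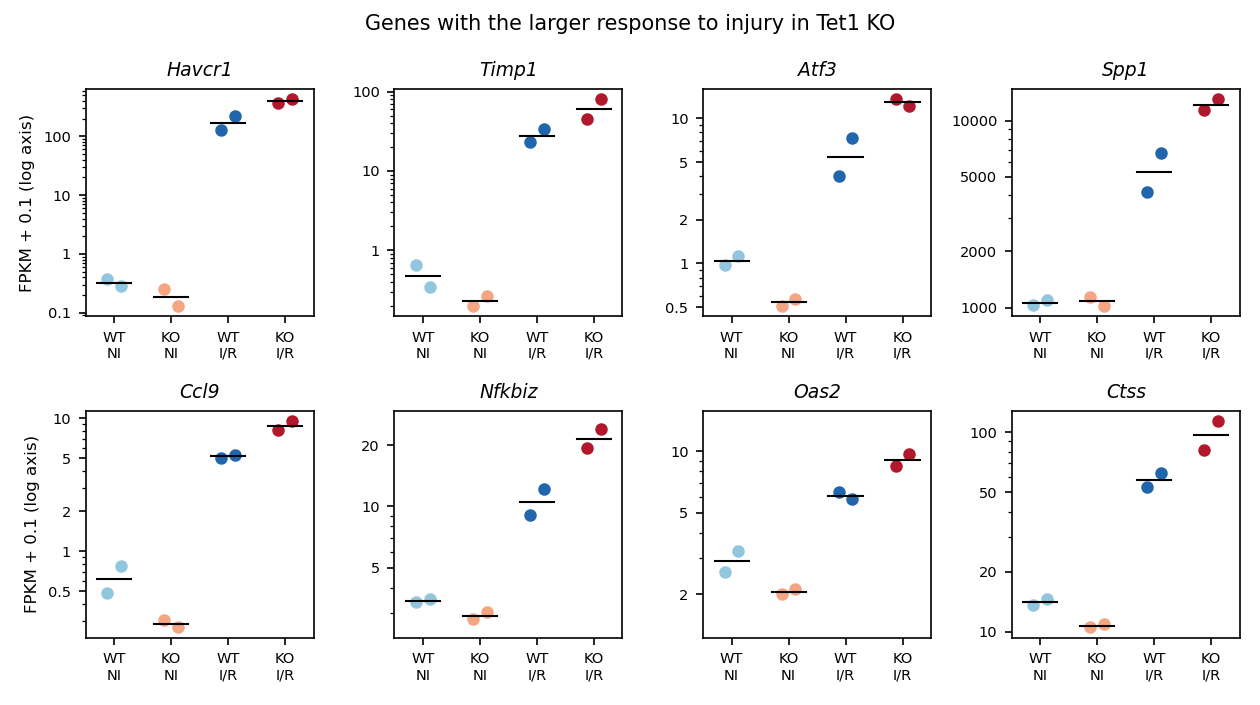
FPKM + 0.1 (log axis, scale set per gene) of 8 genes in the 2 libraries of each group, with bars at the geometric mean. In each gene both KO-I/R 3D points lie above both WT-I/R 3D points. In Havcr1, Timp1, Atf3, Ccl9, Nfkbiz, Oas2 and Ctss both KO-NI points also lie below both WT-NI points.

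Lcn2, which encodes NGAL and is the other common marker of tubular damage, did not follow this pattern. It was read at 1.43 and 1.06 FPKM in WT-NI, 1.96 and 3.53 in KO-NI, 42.9 and 62.0 in WT-I/R 3D and 77.5 and 137 in KO-I/R 3D, higher in KO than in WT both without and with injury, so that its responses of 5.28 in WT and 5.24 in KO left an interaction of -0.04 ± 0.53 whose sign turned with TPM (0.18, where the median of all genes was 0.21). Its genotype difference was 1.04 in non-injured and 1.00 in injured kidneys. Ccn1 and Ccn2, matricellular proteins, had interactions of 2.09 ± 0.75 (1.55 without KO-NI replicate 1) and 0.71 ± 0.23. Ccn2 was level in WT, with 27.1 and 27.3 FPKM in WT-NI, 23.7 and 29.3 in KO-NI, 23.8 and 30.2 in WT-I/R 3D and 45.1 and 40.3 in KO-I/R 3D, and the KO-I/R 3D pair stood above the other 6 libraries.

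Of the leading genes, 2 rest on KO-NI replicate 1. Rpl7a, a ribosomal protein gene, had 55.0 and 59.9 FPKM in WT-NI, 3.39 and 39.8 in KO-NI, 58.5 and 56.9 in WT-I/R 3D and 83.7 and 64.3 in KO-I/R 3D, and Tmsb10, an actin-binding thymosin, had 19.1 and 23.4 FPKM in WT-NI, 1.04 and 16.7 in KO-NI, 123 and 163 in WT-I/R 3D and 152 and 205 in KO-I/R 3D. In both, KO-NI replicate 1 lay more than 10-fold below its partner, and the interactions of 2.63 ± 1.36 and 2.60 ± 1.5 became 0.87 and 0.66 without it. Rpl7a also has processed copies in the genome, among which reads can be split. Lsm5, a subunit of the RNA-binding LSM ring, had 1.58 and 1.71 FPKM in WT-NI, 0.896 and 0.644 in KO-NI, 2.58 and 5.76 in WT-I/R 3D and 13.5 and 8.31 in KO-I/R 3D and an interaction of 2.45 ± 0.56 (2.66 without KO-NI replicate 1), and Cygb, cytoglobin, had 1.77 ± 0.69 (0.99).

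Chemokines, the secreted proteins that recruit leukocytes, and their receptors responded more in Tet1 KO. Of 34 tested genes (of 46 listed), 32 had an interaction above 0. The unadjusted threshold was passed by 11 as larger (3.37% of all genes) and 0 as smaller, and 16 had separate responses (6.41% of all genes). Their median response was 1.89 in WT and 2.72 in KO, and their median interaction was 0.85 (0.91 without KO-NI replicate 1). Most of it came from injured kidneys, where the median genotype difference was 0.52 against -0.15 without injury.

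Among the ligands, Ccl9 had 0.388 and 0.680 FPKM in WT-NI, 0.204 and 0.167 in KO-NI, 4.89 and 5.24 in WT-I/R 3D and 8.02 and 9.43 in KO-I/R 3D, and Ccl6, a related CC chemokine, had 1.59 and 1.75 FPKM in WT-NI, 1.09 and 1.58 in KO-NI, 8.26 and 9.86 in WT-I/R 3D and 14.8 and 16.9 in KO-I/R 3D. In both genes KO-NI had the lowest mean and KO-I/R 3D the highest, with interactions of 1.88 ± 0.38 and 1.12 ± 0.28. Ccl7, which attracts monocytes, was listed at 0 in all 4 non-injured libraries and came to 2.62 and 2.85 FPKM in injured WT and to 5.80 and 6.78 FPKM in injured KO kidneys. Cxcl5, which attracts neutrophils, was likewise listed at 0 without injury and came to 1.92 and 2.88 FPKM with injury in WT and to 5.08 and 7.86 FPKM in KO. For this pair the interactions of 1.17 ± 0.56 and 1.39 ± 0.65 are the differences between the injured groups. Cxcl10, an interferon-induced ligand of CXCR3, had 1.76 and 2.47 FPKM in WT-NI, 1.38 and 0.615 in KO-NI, 8.93 and 18.9 in WT-I/R 3D and 17.4 and 22.0 in KO-I/R 3D, so its injured groups overlapped and the interaction of 1.67 ± 0.63 came more from the non-injured side. Cxcl16, a transmembrane chemokine, had an interaction of 0.94 ± 0.26.

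Ccl4, a chemokine that attracts leukocytes, was read at 1.90 and 1.51 FPKM in WT-NI, 0 and 0.110 in KO-NI, 1.21 and 1.48 in WT-I/R 3D and 1.65 and 2.33 in KO-I/R 3D, level across the WT libraries and the injured KO libraries and near 0 in KO-NI. Because the KO-NI values are at or near the pseudocount, the size of its interaction is set by it, at 4.15 ± 0.62 with 0.1 (adjusted p = 0.390, limma) and 1.70 with 1. It arose almost wholly from the non-injured kidneys.

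Genes of TNF and NF-kappa B signaling and immediate early genes showed a similar direction. Of 29 tested TNF and NF-kappa B genes, 27 lay above 0 and 7 passed the unadjusted threshold as larger, with medians of 0.85 in WT, 1.64 in KO and 0.60 for the interaction (0.49 without KO-NI replicate 1). Nfkbiz, an inducible nuclear I kappa B protein, had 3.29 and 3.43 FPKM in WT-NI, 2.70 and 2.93 in KO-NI, 8.96 and 12.1 in WT-I/R 3D and 19.3 and 23.8 in KO-I/R 3D. The injured KO pair lay above the injured WT pair and the interaction was 1.28 ± 0.26. Of 25 immediate early and AP-1 genes, which encode rapidly induced transcription factors and regulators, 23 lay above 0, but the median interaction of 0.87 fell to 0.43 without KO-NI replicate 1. Jund and Cebpb show the part of that library: Cebpb had 28.4 and 27.2 FPKM in WT-NI, 5.95 and 23.7 in KO-NI, 27.4 and 45.1 in WT-I/R 3D and 37.0 and 61.3 in KO-I/R 3D, and its interaction went from 1.65 ± 0.86 to 0.66, while that of Jund went from 1.13 ± 0.85 to 0.11. Myc, the growth-promoting transcription factor, did not depend on it, with 2.43 and 2.21 FPKM in WT-NI, 2.12 and 2.55 in KO-NI, 6.48 and 10.3 in WT-I/R 3D and 14.2 and 18.3 in KO-I/R 3D and an interaction of 0.97 ± 0.34 (0.84 without KO-NI replicate 1). Btg2, an antiproliferative p53 target, had an interaction of 1.46 ± 0.51.

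Most interferon-stimulated genes and genes of antigen presentation had a mean in Tet1 KO that lay below WT without injury and above WT with injury, although none was called in either comparison. Both held for 29 of 39 tested interferon-stimulated and 16 of 20 tested MHC genes. The same order was not particular to them, as 20 of 27 macrophage and monocyte markers, 27 of 42 tubular injury and 16 of 25 immediate early genes had it. Lower shares were found in other lists, such as 17 of 33 matrix and 0 of 43 mitosis genes. The share over all genes was not counted, so these counts describe the lists and do not set them apart from other genes. Interferons induce the interferon-stimulated genes through STAT and IRF transcription factors, and MHC class I and II molecules present peptides to T cells. Of 39 tested interferon-stimulated genes, 37 had an interaction above 0. The unadjusted threshold was passed by 18 as larger (3.37% of all genes) and 0 as smaller, and 24 had separate responses (6.41% of all genes). After injury 16 of the 39 rose in WT and 34 in KO, against 8.90% and 17.9% of all genes tested. Their median response was 0.58 in WT and 1.36 in KO, and the median interaction was 0.63 (0.69 without KO-NI replicate 1). The median genotype difference was -0.30 in non-injured kidneys (-0.32 without KO-NI replicate 1) and 0.29 in injured kidneys. Of 20 tested MHC genes, 19 lay above 0, 15 passed the unadjusted threshold as larger, and 15 had separate responses. Their median response was 0.71 in WT and 1.48 in KO, with a median interaction of 0.75 (0.65 without KO-NI replicate 1), from -0.50 without injury (-0.38 without KO-NI replicate 1) and 0.27 with injury.

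Oas2, a sensor of double-stranded RNA, had 2.47 and 3.16 FPKM in WT-NI, 1.89 and 2.01 in KO-NI, 6.23 and 5.72 in WT-I/R 3D and 8.36 and 9.59 in KO-I/R 3D. KO-NI lay below WT-NI and KO-I/R 3D above WT-I/R 3D, and the interaction was 1.07 ± 0.23. Ifi27, an interferon-induced mitochondrial protein, had 77.4 and 94.7 FPKM in WT-NI, 42.4 and 56.0 in KO-NI, 76.9 and 74.4 in WT-I/R 3D and 84.2 and 97.0 in KO-I/R 3D, with a WT response of -0.18 and an interaction of 1.07 ± 0.25. Oasl1, a regulator of the interferon response, differed mainly before injury, with 2.03 and 3.20 FPKM in WT-NI, 0.816 and 1.31 in KO-NI, 3.94 and 4.89 in WT-I/R 3D and 4.27 and 3.55 in KO-I/R 3D, so that its injured groups overlapped and the interaction was 1.05 ± 0.42. Bst2, the antiviral membrane protein tetherin, had 33.9 and 40.1 FPKM in WT-NI, 25.4 and 28.9 in KO-NI, 67.0 and 74.1 in WT-I/R 3D and 62.2 and 95.7 in KO-I/R 3D, and its responses overlapped (interaction 0.57 ± 0.30, 0.26 without KO-I/R 3D replicate 2).

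B2m, the light chain of MHC class I, had 370.4 and 386 FPKM in WT-NI, 359 and 317 in KO-NI, 714 and 669.9 in WT-I/R 3D and 1037 and 918 in KO-I/R 3D, with no overlap between the injured groups and an interaction of 0.66 ± 0.20. Cd74, the class II invariant chain, had 156 and 170.1 FPKM in WT-NI, 107 and 115 in KO-NI, 269 and 402 in WT-I/R 3D and 349 and 382 in KO-I/R 3D, where the non-injured groups were apart and the injured ones overlapped (interaction 0.70 ± 0.28). Ciita, the master transactivator of class II genes, had 1.14 and 0.951 FPKM in WT-NI, 0.707 and 0.550 in KO-NI, 1.19 and 2.18 in WT-I/R 3D and 2.01 and 2.68 in KO-I/R 3D and an interaction of 1.15 ± 0.48. Ctss, cathepsin S, which trims the invariant chain, had 13.5 and 14.4 FPKM in WT-NI, 10.4 and 10.8 in KO-NI, 53.4 and 62.3 in WT-I/R 3D and 81.9 and 114 in KO-I/R 3D and an interaction of 1.14 ± 0.25 (1.11 without KO-NI replicate 1). H2-DMa, a class II peptide loader, had an interaction of 1.04 ± 0.34, and H2-Q4, a class I gene whose reads can be shared with close relatives, 0.86 ± 0.22.

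The promoters of these co-moving genes were searched for the core of the interferon-stimulated response element, GAAANNGAAA, on both strands within the 250 bases before the transcription start. RefSeq sequences of GRCm38.p6 gave a single start for 8425 of the 15650 genes. The core was found in 2.75% of these, in 54.2% of 24 interferon-stimulated genes, in 30.8% of 13 MHC genes and in 7.31% of the 479 genes with the separate, larger KO response (2.06% of the 679 with the smaller one). The AP-1 motif TGANTCA stood in 4.25% of all, in 23.1% of 26 tubular injury genes and in 7.72% of genes with the larger and 5.45% with the smaller KO response, and in 0% of 19 immediate early and AP-1 genes. The set with the larger KO response was picked from these data. It includes 24 interferon-stimulated and 15 MHC genes, counted with or without a single start, so its share is not independent of theirs. A match is a description of letters and no evidence of binding. The promoters of Bst2 (chr8:71537473-71537722, minus strand), B2m (chr2:122147437-122147686, plus strand) and Ctss (chr3:95526536-95526785, plus strand) are shown with the response element core in capitals, and that of Sprr2f (chr3:92364937-92365186, plus strand) with the AP-1 motif in capitals. They were chosen because a single start was listed and the motif was present.
Bst2: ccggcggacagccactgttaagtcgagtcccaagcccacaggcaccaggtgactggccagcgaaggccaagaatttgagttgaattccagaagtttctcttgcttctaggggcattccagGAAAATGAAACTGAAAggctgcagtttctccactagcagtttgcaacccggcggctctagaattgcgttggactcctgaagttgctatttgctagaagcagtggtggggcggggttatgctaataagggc
B2m: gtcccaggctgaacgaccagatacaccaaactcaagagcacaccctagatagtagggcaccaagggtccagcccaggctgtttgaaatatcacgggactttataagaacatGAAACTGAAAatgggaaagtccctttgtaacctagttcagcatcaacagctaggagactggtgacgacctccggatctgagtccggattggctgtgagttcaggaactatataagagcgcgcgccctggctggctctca
Ctss: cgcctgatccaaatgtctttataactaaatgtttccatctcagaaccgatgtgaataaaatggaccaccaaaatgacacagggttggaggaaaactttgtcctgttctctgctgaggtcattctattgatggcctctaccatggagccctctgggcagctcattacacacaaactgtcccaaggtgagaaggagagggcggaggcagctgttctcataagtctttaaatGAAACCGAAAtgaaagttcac
Sprr2f: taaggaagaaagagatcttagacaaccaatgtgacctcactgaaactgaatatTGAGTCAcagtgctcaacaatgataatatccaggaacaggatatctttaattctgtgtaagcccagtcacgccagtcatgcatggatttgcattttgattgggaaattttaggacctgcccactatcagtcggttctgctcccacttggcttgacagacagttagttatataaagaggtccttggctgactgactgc

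Complement genes and macrophage markers had the larger response in KO as well, and in bulk kidney RNA more cells of a type and more RNA per cell cannot be told apart. Of 19 tested complement genes, 17 lay above 0, 8 passed the unadjusted threshold as larger and 10 had separate responses (3.37% and 6.41% of all genes did). Their median interaction was 0.79 (0.62 without KO-NI replicate 1). Cfi, complement factor I, had 4.14 and 4.98 FPKM in WT-NI, 3.87 and 3.09 in KO-NI, 10.7 and 17.5 in WT-I/R 3D and 24.1 and 25.5 in KO-I/R 3D and an interaction of 1.23 ± 0.35. C1qa, a chain of C1q made by macrophages, had 21.6 and 27.2 FPKM in WT-NI, 9.98 and 17.3 in KO-NI, 113 and 126 in WT-I/R 3D and 115 and 180.2 in KO-I/R 3D. Its KO-NI libraries were the lowest, its injured groups overlapped, and the interaction was 1.14 ± 0.44 (0.75 without KO-NI replicate 1). Serping1, the C1 inhibitor, had an interaction of 0.77 ± 0.22. Of 27 tested macrophage and monocyte markers, 26 lay above 0 and 17 had separate responses, with medians of 2.30 in WT, 3.26 in KO and 0.75 for the interaction. This list shares members with the complement genes, among them C1qa. The summed level of the 30 listed markers was 532 to 581 FPKM in WT-NI, 338 to 471 in KO-NI, 1375 to 1650 in WT-I/R 3D and 1553 to 2268 in KO-I/R 3D, with none at 0 in every library. The part of cell numbers in the inflammatory lists was not tested. Fcgr1 and Ms4a6c, surface proteins of monocytes and macrophages, had interactions of 1.21 ± 0.38 and 1.39 ± 0.44.

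Matrix genes differed less between the genotypes. Of 33 tested collagens and other matrix genes 30 lay above 0 but 6 passed the unadjusted threshold, and the median interaction was 0.37 (0.23 without KO-NI replicate 1). Tnc, tenascin C, had 0.618 and 0.386 FPKM in WT-NI, 0.342 and 0.459 in KO-NI, 4.82 and 4.69 in WT-I/R 3D and 6.58 and 12.4 in KO-I/R 3D (interaction 1.16 ± 0.49, 0.71 without KO-I/R 3D replicate 2), and Tgfbi, a TGF beta induced matrix protein, had 5.88 and 6.78 FPKM in WT-NI, 5.13 and 5.78 in KO-NI, 15.9 and 21.4 in WT-I/R 3D and 26.4 and 32.4 in KO-I/R 3D (interaction 0.88 ± 0.26). Lox, a collagen cross-linking enzyme, had an interaction of 1.23 ± 0.39. Col5a2, a chain of type V collagen, had another shape. It was read at 9.51 and 8.10 FPKM in WT-NI, 2.80 and 2.67 in KO-NI, 8.27 and 8.58 in WT-I/R 3D and 7.94 and 9.37 in KO-I/R 3D, so that both KO-NI libraries lay far below the other 6, which were alike, and the interaction was 1.68 ± 0.20.

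**Figure D3:**
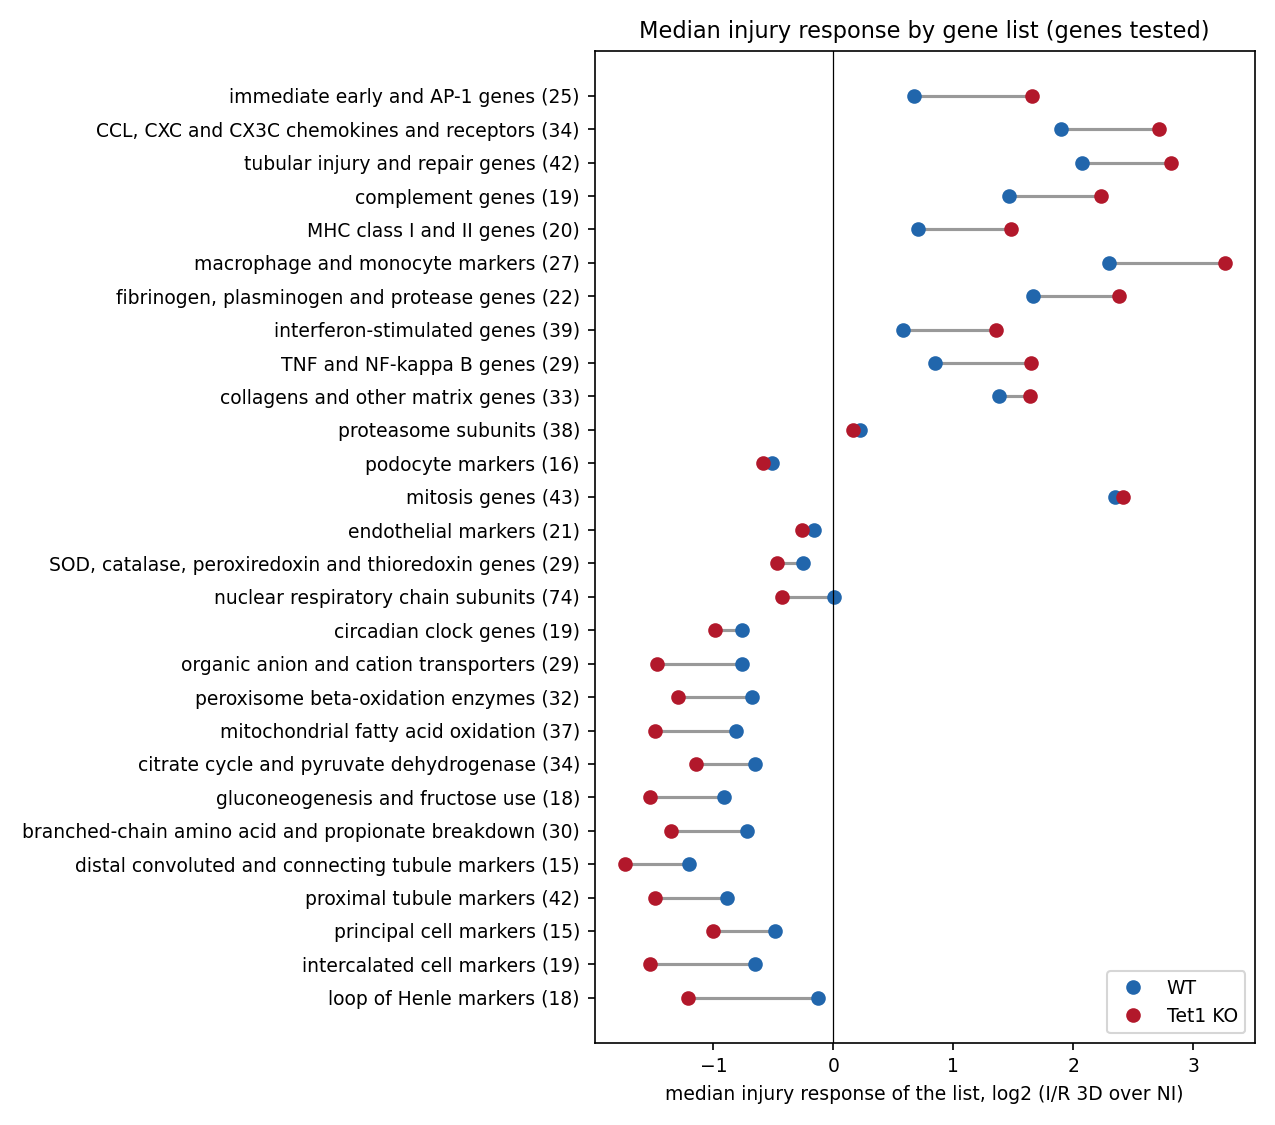
Median injury response (log2 of I/R 3D over NI) of 28 gene lists in WT (blue) and Tet1 KO (red), with the number of genes tested in parentheses and lists ordered by median interaction. The widest gap is that of the loop of Henle markers, from -0.12 in WT to -1.21 in KO, while mitosis genes lie at 2.35 and 2.42.

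Genes that mark the nephron segments responded in the opposite direction, with lower values in Tet1 KO. In bulk kidney RNA fewer cells of a segment and less RNA per cell cannot be told apart. The part of cell numbers in the segment markers was not tested. The loop of Henle, whose thick limb reabsorbs sodium chloride and sets up the urinary concentrating gradient, had the largest median of the 28 lists described. Of 18 tested loop of Henle markers, 17 had an interaction below 0 (50.6% of all genes did). The unadjusted threshold was passed by 12 as smaller (5.72% of all genes) and 0 as larger, and 12 had separate responses (8.40% of all genes). Their median response was -0.12 in WT and -1.21 in KO, and the median interaction was -1.07 (-0.98 without KO-NI replicate 1). Of these markers 1 fell in WT and 13 in KO, against 8.45% and 19.4% of all genes tested. The median genotype difference was -0.88 in injured and 0.07 in non-injured kidneys.

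Slc12a1, the NKCC2 cotransporter of the thick limb, had 361 and 412 FPKM in WT-NI, 648 and 383 in KO-NI, 307 and 240.3 in WT-I/R 3D and 151 and 89.6 in KO-I/R 3D. KO-NI replicate 1 was the highest library, and the interaction of -1.59 ± 0.46 was -1.21 without it. Umod, uromodulin, the most abundant protein of urine, had 1696 and 1964 FPKM in WT-NI, 2048 and 2024 in KO-NI, 1452 and 1616 in WT-I/R 3D and 1094 and 894 in KO-I/R 3D and an interaction of -0.79 ± 0.26. Ptger3, a prostaglandin E2 receptor, had 18.1 and 21.8 FPKM in WT-NI, 31.4 and 20.9 in KO-NI, 14.5 and 12.7 in WT-I/R 3D and 5.61 and 4.48 in KO-I/R 3D and -1.79 ± 0.32. Egf, the growth factor made in the thick limb and distal convoluted tubule, had 258 and 284 FPKM in WT-NI, 311 and 244 in KO-NI, 90.5 and 72.8 in WT-I/R 3D and 29.1 and 11.8 in KO-I/R 3D and -2.15 ± 0.55. In all 4 genes the KO-I/R 3D pair was lower than each of the remaining libraries. Tmem207, a membrane protein of the same segment, had 7.73 and 9.66 FPKM in WT-NI, 12.1 and 8.53 in KO-NI, 11.2 and 7.61 in WT-I/R 3D and 3.88 and 2.02 in KO-I/R 3D and an interaction of -1.91 ± 0.49.

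**Figure D4:**
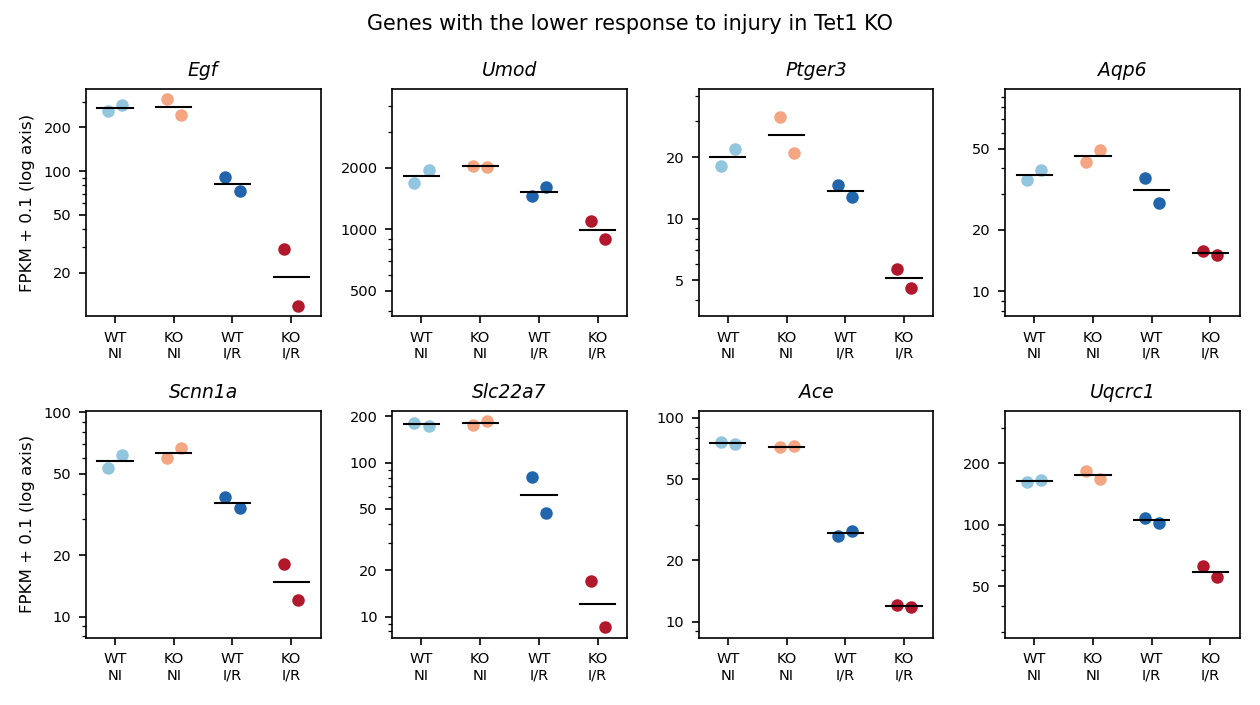
FPKM + 0.1 (log axis, scale set per gene) of 8 tubule and metabolic genes in the 2 libraries of each group, with bars at the geometric mean. In each gene both KO-I/R 3D points lie below the other 6 points.

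The collecting duct, which holds principal cells for sodium and water and intercalated cells for acid and base, showed the same direction. Of 19 intercalated cell markers 17 lay below 0, 8 passed the unadjusted threshold as smaller, and the median went from -0.66 in WT to -1.53 in KO (interaction -0.75, -0.67 without KO-NI replicate 1). Aqp6, an intracellular water and anion channel, had 35.1 and 39.3 FPKM in WT-NI, 43.1 and 49.0 in KO-NI, 35.9 and 27.1 in WT-I/R 3D and 15.7 and 15 in KO-I/R 3D and an interaction of -1.33 ± 0.23. Slc4a1, the anion exchanger AE1 of intercalated and red blood cells, had 16.9 and 18.5 FPKM in WT-NI, 16.6 and 15.9 in KO-NI, 12.8 and 8.48 in WT-I/R 3D and 4.02 and 2.16 in KO-I/R 3D and -1.66 ± 0.43. Rhbg and Rhcg, ammonia transporters, had -1.22 ± 0.45 and -1.07 ± 0.37. All 15 tested principal cell markers had an interaction below 0, and 7 passed the unadjusted threshold as smaller, with a median of -0.68 (-0.52 without KO-NI replicate 1). Scnn1a, the alpha subunit of the epithelial sodium channel, had 53.6 and 61.8 FPKM in WT-NI, 59.7 and 66.7 in KO-NI, 38.2 and 33.9 in WT-I/R 3D and 18.0 and 11.9 in KO-I/R 3D and an interaction of -1.43 ± 0.29. Aqp2, the vasopressin-regulated water channel, had 276 and 327 FPKM in WT-NI, 231 and 301 in KO-NI, 444 and 266 in WT-I/R 3D and 117 and 179 in KO-I/R 3D. It was not lower in WT after injury, the KO-I/R 3D pair was lower than the rest, and the interaction was -1.06 ± 0.43. The basolateral water channels Aqp3 and Aqp4 had -1.13 ± 0.27 and -1.27 ± 0.46, the latter -0.83 without KO-NI replicate 1.

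Of 15 distal convoluted and connecting tubule markers, 14 lay below 0 and 4 passed the unadjusted threshold, with a median of -0.63. With TPM 0 passed as smaller and 1 as larger. These markers fell strongly in both genotypes, 10 in WT and 13 in KO (8.45% and 19.4% of all genes tested fell). The calcium-binding proteins Pvalb, Calb1 and S100g had interactions of -1.78 ± 0.69, -1.21 ± 0.45 and -1.26 ± 0.46, and Slc12a3, the thiazide-sensitive cotransporter, -0.55 ± 0.28. All 4 rested in part on KO-I/R 3D replicate 2, without which they were -0.95, -0.74, -0.74 and -0.25. Pvalb ended lowest, with 31.7 and 37.0 FPKM in WT-NI, 25.4 and 30.3 in KO-NI, 15.3 and 10.6 in WT-I/R 3D and 5.29 and 1.61 in KO-I/R 3D.

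Proximal tubule markers, the most abundant of the kidney, also had lower responses in KO. Of 42 tested, 39 lay below 0, 13 passed the unadjusted threshold as smaller and 20 had separate, smaller responses (5.72% and 8.40% of all genes did). The median response was -0.89 in WT and -1.48 in KO (interaction -0.68, -0.64 without KO-NI replicate 1), with a genotype difference of 0.05 without and -0.59 with injury. Slc22a7 and Slc22a8, organic anion transporters, had interactions of -2.39 ± 0.50 and -1.44 ± 0.39. Slc22a7 was read at 182 and 173 FPKM in WT-NI, 177 and 186 in KO-NI, 80.1 and 47.3 in WT-I/R 3D and 16.8 and 8.39 in KO-I/R 3D, with the non-injured groups overlapping and the injured ones more than 2-fold apart. Of 29 tested organic anion and cation transporters, 9 passed the unadjusted threshold as smaller and 0 as larger (median -0.50). Ass1, an enzyme of arginine synthesis in this segment, had 848 and 889 FPKM in WT-NI, 832 and 983 in KO-NI, 296 and 301 in WT-I/R 3D and 156 and 102 in KO-I/R 3D and -1.30 ± 0.30. Kap, an androgen-regulated protein, rested partly on KO-NI replicate 1, which held 23234 FPKM of it, and its interaction of -1.52 ± 0.71 became -0.80 without it. Ace, the angiotensin-converting enzyme of the brush border, had close replicates, at 76.1 and 74.3 FPKM in WT-NI, 71.7 and 72.8 in KO-NI, 26.3 and 27.8 in WT-I/R 3D and 12.0 and 11.8 in KO-I/R 3D, and an interaction of -1.12 ± 0.14 (adjusted p = 0.390, limma).

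The metabolic pathways of the proximal tubule, which runs on fatty acids and makes glucose, followed. Not 1 of the 30 tested genes of branched-chain amino acid and propionate breakdown, nor of the 32 peroxisomal beta-oxidation enzymes, had an interaction above 0. Of the former 16 and of the latter 15 passed the unadjusted threshold as smaller, against 5.72% of all genes. With TPM 9 and 4 passed, against 2.60% of all genes. Their median interactions were -0.62 and -0.51 (-0.56 and -0.45 without KO-NI replicate 1). The medians were -0.55 for 37 genes of mitochondrial fatty acid oxidation, -0.59 for 34 of the citrate cycle (-0.40 without KO-NI replicate 1) and -0.62 for 18 of gluconeogenesis and fructose use. In each of these lists the genotype difference lay between -0.58 and -0.38 in injured and between 0.04 and 0.10 in non-injured kidneys.

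Ehhadh, the bifunctional enzyme of peroxisomal beta-oxidation, had 307 and 249 FPKM in WT-NI, 367 and 338 in KO-NI, 103 and 80.2 in WT-I/R 3D and 58.8 and 44.2 in KO-I/R 3D and an interaction of -1.19 ± 0.28. Pccb, a subunit of propionyl-CoA carboxylase, had 145 and 156 FPKM in WT-NI, 150.3 and 157 in KO-NI, 79.7 and 72.1 in WT-I/R 3D and 47.2 and 45.5 in KO-I/R 3D and -0.74 ± 0.16. Ogdh, the E1 subunit of the oxoglutarate dehydrogenase complex, had 161 and 163 FPKM in WT-NI, 179.6 and 163 in KO-NI, 82.8 and 82.6 in WT-I/R 3D and 50.4 and 46.2 in KO-I/R 3D and -0.86 ± 0.16. In these 3 genes the WT injured pair lay between the non-injured libraries and the KO injured pair. Fbp1 and G6pc, enzymes of gluconeogenesis, had -0.99 ± 0.28 and -1.71 ± 0.54 (G6pc -1.06 without KO-I/R 3D replicate 2), Sord, sorbitol dehydrogenase, -1.04 ± 0.24, and Pcx, pyruvate carboxylase, -1.0 ± 0.29. Acadm and Acaa2, enzymes of mitochondrial beta-oxidation, had -0.97 ± 0.35 and -0.85 ± 0.27, and Cyp4b1, a fatty acid hydroxylase, -1.27 ± 0.22. Oxct1, which uses ketone bodies, Aldh6a1 of valine breakdown and Abat, the GABA transaminase, had -1.06 ± 0.36, -0.93 ± 0.36 and -0.92 ± 0.25.

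The nuclear subunits of the respiratory chain behaved differently from the enzymes that feed it. Their median response was near 0 in WT and -0.43 in KO. Of 74 genes, 65 lay below 0, 24 passed the unadjusted threshold as smaller and 0 as larger, with a median of -0.39. With TPM 7 passed as smaller and the median was -0.17, or -0.39 relative to all genes. The list moved with the KO-NI libraries: the median was -0.58 with 44 genes past the threshold without KO-NI replicate 1, and -0.15 without KO-NI replicate 2. Uqcrc1, a core subunit of complex III, had 163 and 166 FPKM in WT-NI, 183 and 167 in KO-NI, 108 and 102 in WT-I/R 3D and 62.4 and 55.2 in KO-I/R 3D and an interaction of -0.93 ± 0.17. Atp5g1, a subunit c gene of ATP synthase, was level in WT, with 56.3 and 64.0 FPKM in WT-NI, 56.4 and 65.7 in KO-NI, 62.5 and 54.1 in WT-I/R 3D and 35.0 and 32.4 in KO-I/R 3D and -0.81 ± 0.20. Ndufa10 of complex I and Sdhc of complex II had -0.80 ± 0.18 and -0.81 ± 0.17. Cox8a, a subunit of cytochrome c oxidase, had 1041 and 1155 FPKM in WT-NI, 734 and 1138 in KO-NI, 1219 and 1029 in WT-I/R 3D and 652 and 697 in KO-I/R 3D, and its interaction of -0.47 ± 0.33 became -0.79 without KO-NI replicate 1.

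Antioxidant genes differed less. Of 29 tested SOD, catalase, peroxiredoxin and thioredoxin genes, 22 lay below 0, 4 passed the unadjusted threshold as smaller and 0 as larger, and the median was -0.23. With TPM it was -0.01, or -0.22 relative to all genes. Sod2, the mitochondrial superoxide dismutase, had 40.2 and 41.5 FPKM in WT-NI, 45.2 and 40.1 in KO-NI, 25.9 and 22.0 in WT-I/R 3D and 16.8 and 13.7 in KO-I/R 3D and an interaction of -0.71 ± 0.21. Cat, catalase, had 435 and 418 FPKM in WT-NI, 417 and 400.4 in KO-NI, 211 and 194 in WT-I/R 3D and 152 and 118 in KO-I/R 3D and -0.54 ± 0.22 (-0.35 without KO-I/R 3D replicate 2). In both, the injured KO pair lay below the injured WT pair. Sod1, the cytosolic enzyme, had 104 and 111 FPKM in WT-NI, 59.2 and 117 in KO-NI, 106 and 92.3 in WT-I/R 3D and 62.1 and 68.1 in KO-I/R 3D. KO-NI replicate 1 lay at the level of the injured KO kidneys and far from its partner, and the interaction of -0.23 ± 0.41 was -0.72 without replicate 1 and turned to 0.26 without replicate 2. The injured groups did not overlap (-0.60 between genotypes). Gpx6, a glutathione peroxidase, had the lowest value of the list, with 42.6 and 54.3 FPKM in WT-NI, 79.2 and 53.7 in KO-NI, 47.3 and 31.2 in WT-I/R 3D and 13.4 and 7.76 in KO-I/R 3D and -2.34 ± 0.47. Prdx5, a peroxiredoxin, had -0.55 ± 0.28 (-0.77 without KO-NI replicate 1).

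The circadian clock genes had a median interaction of -0.43 (-0.50 without KO-NI replicate 1), and 6 of 19 passed the unadjusted threshold as smaller. They oscillate over the day, and the hour of harvest is not given. Nr1d1, a nuclear receptor that represses Bmal1, had 39.9 and 40.3 FPKM in WT-NI, 41.2 and 47.1 in KO-NI, 23.8 and 21.8 in WT-I/R 3D and 13.3 and 9.41 in KO-I/R 3D and an interaction of -1.16 ± 0.25. The PAR bZIP factors Hlf and Tef, which act on detoxification genes, had -1.07 ± 0.32 and -0.91 ± 0.23, and Per3, a period gene, -0.85 ± 0.17.

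**Figure D5:**
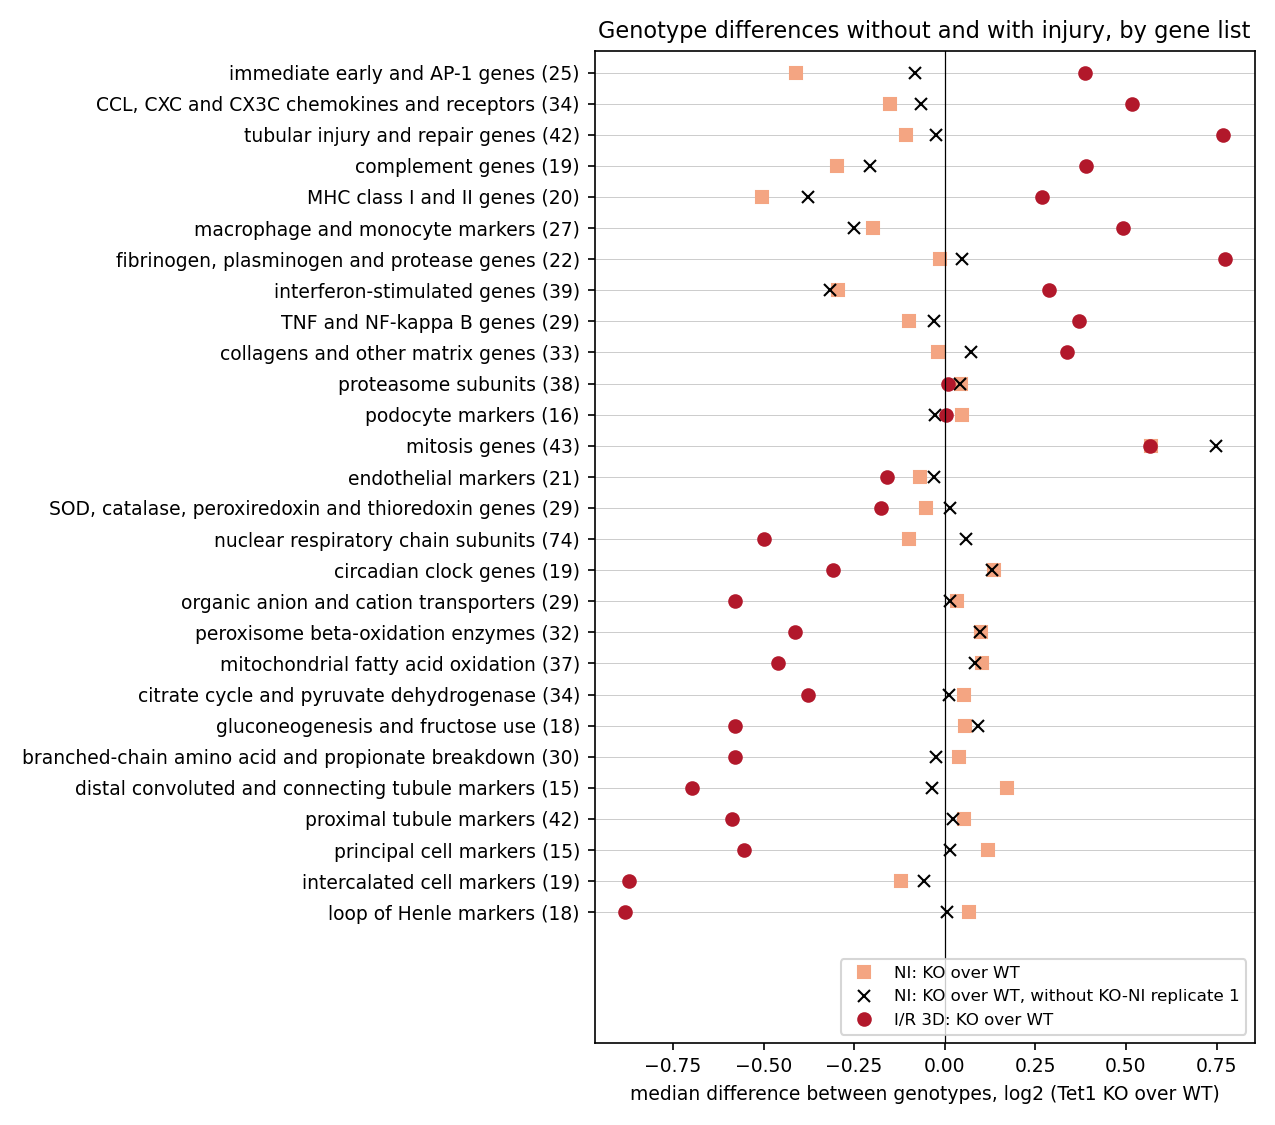
Median difference between Tet1 KO and WT (log2) of 28 gene lists in non-injured kidneys (squares, crosses without KO-NI replicate 1) and in injured kidneys (circles), with the number of genes tested in parentheses. Loop of Henle markers lie at 0.07 without and -0.88 with injury, MHC genes at -0.50 and 0.27, and mitosis genes at 0.57 and 0.57.

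Cell division genes rose in both genotypes. Of 43 tested mitosis genes 41 rose in WT and 41 in KO (8.90% and 17.9% of all genes tested did), with medians of 2.35 and 2.42. The median interaction was -0.04 (-0.24 without KO-NI replicate 1), and 0 and 0 genes passed the unadjusted threshold as larger or smaller. With TPM it was 0.18, or -0.03 relative to all genes. The median level was higher in KO by 0.57 without and by 0.57 with injury. Mki67, the proliferation antigen Ki-67, had 0.657 and 1.09 FPKM in WT-NI, 1.07 and 1.72 in KO-NI, 6.61 and 9.09 in WT-I/R 3D and 13.7 and 11.2 in KO-I/R 3D, and its interaction of 0.04 ± 0.44 turned to -0.04 with limma voom. Proteasome subunits had a median of 0.03, podocyte markers of -0.02 and endothelial markers of -0.15, with at most 1 gene a list past the unadjusted threshold. With TPM the podocyte and endothelial medians were 0.19 and 0.07, or -0.02 and -0.14 relative to all genes. The standard error of an interaction had a median of 0.29 over all genes. No gene passed the adjusted test at any size of interaction, so values near 0 in these lists do not show that differences were absent.

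In a few genes the 2 genotypes responded in opposite directions. By the rule of at least 0.5 in size on both sides and a group mean of at least 5 FPKM, 3 protein-coding genes were higher after injury in all 4 KO responses and lower in all 4 WT responses, and 2 were the reverse. Cyp24a1, the hydroxylase that inactivates vitamin D, had 53.4 and 27.3 FPKM in WT-NI, 11.3 and 18.1 in KO-NI, 10.6 and 21.7 in WT-I/R 3D and 20.4 and 25.7 in KO-I/R 3D and an interaction of 2.00 ± 0.62. Rcan1, an inhibitor of calcineurin, had 37.4 and 43.4 FPKM in WT-NI, 35.3 and 29.1 in KO-NI, 21.3 and 30.8 in WT-I/R 3D and 45.7 and 47.9 in KO-I/R 3D and 1.20 ± 0.28. Nuak2, an AMPK-related kinase, had 43.3 and 43.0 FPKM in WT-NI, 30.4 and 41.2 in KO-NI, 23.1 and 32.4 in WT-I/R 3D and 44.6 and 56.9 in KO-I/R 3D and 1.16 ± 0.32. In Rcan1 and Nuak2 the KO-I/R 3D pair stood above all other libraries. Lypd2, a Ly6 family protein, had 2.25 and 1.68 FPKM in WT-NI, 3.13 and 2.79 in KO-NI, 14.8 and 4.24 in WT-I/R 3D and 1.44 and 1.63 in KO-I/R 3D, with the rise in WT carried by 1 library more than the other, and an interaction of -2.88 ± 0.73. Gm11084, a predicted gene, was listed at 0 in both WT-NI libraries and had 7.71 and 6.34 FPKM in KO-NI, 1.65 and 0.787 in WT-I/R 3D and 2.49 and 5.57 in KO-I/R 3D, so its interaction has no bound and is set by the genotype difference without injury.

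Other genes with low interactions were Nccrp1, a lectin-like F-box protein, with 32.7 and 45.7 FPKM in WT-NI, 45.2 and 46.4 in KO-NI, 107 and 44.3 in WT-I/R 3D and 15.8 and 4.02 in KO-I/R 3D and an interaction of -3.33 ± 0.92, Lrrc66 (-2.34 ± 0.57), Rnf24 (-2.22 ± 0.91) and Sec14l3, a lipid transfer protein (-2.28 ± 0.95). Without KO-I/R 3D replicate 2, Rnf24 was at -1.13 and Sec14l3 at -1.48, and without WT-I/R 3D replicate 1 Sec14l3 was at -1.42. Ces1g, a carboxylesterase of lipid metabolism, differed already without injury, with 1.49 and 2.09 FPKM in WT-NI, 4.75 and 6.32 in KO-NI, 0.666 and 0.591 in WT-I/R 3D and 0.432 and 0.201 in KO-I/R 3D and -2.44 ± 0.50 (-1.54 with a pseudocount of 1). Pcsk6, a proprotein convertase, Wfdc15b, a WAP domain protein, C8a, a complement chain, and Fa2h, a fatty acid hydroxylase of sphingolipids, had -2.04 ± 0.43, -1.99 ± 0.53, -1.92 ± 0.41 and -1.91 ± 0.32. Wfdc15b was level in WT, with 269 and 318 FPKM in WT-NI, 425 and 304 in KO-NI, 373 and 249 in WT-I/R 3D and 136 and 65.2 in KO-I/R 3D.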

How the data were processed

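Whole-kidney RNA gave 8 libraries, 2 a group in 4 groups, with groups and replicate numbers taken from the sample labels. The authors deposited 1 table of FPKM for all libraries. HISAT2 2.0.5 and GRCm38.p6 (mm10) are named in the submitters' notes on processing, and the read counter was not given in the sources used here. Multiplying FPKM with gene length gave whole reads for 100% of values (tolerance 0.001 reads) and totals of 13961281 to 18480858 reads a library. The divisor behind the deposited FPKM was 0.808 to 1.13 times that total, so the values had been scaled between libraries before deposit, and PCR duplicates limit what these depths tell of precision. Blank lines (4) were dropped.

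From the FPKM, log2(FPKM + 0.1) was fitted with limma 3.58.1 in R 4.3.3 (4 group means, variance trend, all 8 libraries, 4 residual and 2.89 prior degrees of freedom) over genes that reached 1 FPKM in 2 or more libraries, with Benjamini-Hochberg adjustment over all of them. Because the deposited unit is not counts, recovered reads were used for limma voom as an alternative (at least 10 reads in 2 libraries, 18252 genes). Further alternatives were TPM and median-of-ratios scaling, a pseudocount of 1, omission of the filter, no variance trend, a replicate block, library weights, removal of trends with GC share and transcript length, no fold threshold, and leaving out each library.

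Genes were named by rule: the 15 protein-coding genes in each direction with the largest interaction among those with separate responses and a group mean of at least 5 FPKM, opposite responders, up to 4 members of each list with separate responses and the largest interaction, up to 2 other abundant members, and genes whose RNA the study measured. The text shows part of these, and some named by the rule are not reported here. The lists and genes were chosen with earlier results of these data known, so a list's count is a description. Of 61 lists 28 are described. Some share members, such as Timp1 in the injury and protease lists and Ehhadh in the branched-chain and peroxisomal lists, so they are not independent. Promoters were taken from RefSeq (GRCm38.p6), and no coordinates of the deposited table are printed.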

Additional observations from a re-analysis of the deposited data

Results flagged for a closer look

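In 7 of the genes named above, all 4 injury responses of 1 genotype lay above 0 and all 4 of the other lay below 0. None of these differences passed the adjusted threshold, and each group had 2 libraries. Ccl4 had WT responses of -0.61 to -0.03 and KO responses over KO-NI libraries at or near 0 FPKM, so that its difference is set by the pseudocount, 4.15 on the log2 scale with 0.1 and 1.70 with 1. Cyp24a1 (2.00), Rcan1 (1.20) and Nuak2 (1.16) were lower after injury in WT and higher in KO. Ifi27 (1.07) did the same, with its WT responses reaching -0.01. Lypd2 (-2.88) and Gm11084 were higher after injury in WT and lower in KO. Gm11084 was listed at 0 in both WT-NI libraries, and its difference is set by the pseudocount too (-4.52 with 0.1, -1.86 with 1). The adjusted p of these genes ran from 0.390 to 0.411 (limma, Benjamini-Hochberg).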

How the results depend on the processing

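With 2 libraries a group, the spread rests on 4 residual degrees of freedom, so the adjusted interaction test can miss moderate and large differences. A group left with 1 library is assumed to vary like the others. The named genes and lists kept their direction in nearly all alternatives. Of 1886 values of 111 named genes, 12 changed sign, in 3 genes with an interaction near 0. These gene values were not taken relative to all genes. Of 476 list medians taken relative to all genes, 9 changed sign, all in mitosis genes and podocyte markers. In size, 30 of the 111 genes moved over 1.5 times when some 1 library was left out, 13 of them without KO-I/R 3D replicate 2 and 12 without KO-NI replicate 1. Lcn2 (-0.04) became 0.27 with a pseudocount of 1, 0.18 with TPM and -0.45 to 0.37 when single libraries were left out. Mki67 (0.04) became -0.038 with limma voom and -0.28 to 0.37 without single libraries, and Sod1 (-0.23) ranged from -0.72 without KO-NI replicate 1 to 0.26 without KO-NI replicate 2.

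Counts moved more than directions. Without the fold threshold, 1645 genes had separate larger and 2318 separate smaller responses. Without the filter these were 2294 and 2266, 1037 genes were larger at an unadjusted p, and 28 and 31 genes were called higher and lower in injured KO against injured WT (0 and 0 with the filter). With TPM, 1115 and 409 genes passed the unadjusted threshold, 2108 and 660 had separate responses, 734 fell in WT, and 5208 rose and 1580 fell in KO. Without the variance trend, 4 genes were called larger in the interaction: Igkj1, Mir7240, Trbj1-1 and a transcript without a gene name. The same setting called 1 gene higher (Gm11084) and 4 lower in KO-NI against WT-NI and 2 higher after injury (Igkj1 and Trbj1-1). With library weights, 2347 genes rose and 2080 fell in WT, 1802 rose in KO, and 90 and 543 were called higher and lower in injured KO against injured WT. Limma voom called 87 and 298 in that comparison and 1 gene lower without injury (Col5a2, the 1 gene also called when the GC and length trends were removed).

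Leaving out each library gave 0 to 182 genes called larger and 0 to 50 smaller in the interaction, 243 to 1868 and 482 to 1641 at an unadjusted p, and 1167 to 2783 and 1329 to 2449 with separate responses, the highest always without KO-NI replicate 2. The WT response had 205 to 2050 genes called higher and 76 to 1823 lower, with the lowest counts without any 1 of the 4 WT libraries. The KO response had 1421 to 3719 and 1934 to 3632, lowest without KO-I/R 3D replicate 2. KO against WT gave 0 to 776 and 0 to 1444 without injury, above 0 only without KO-NI replicate 2, and 0 to 111 and 0 to 551 with injury, with 109 and 546 without KO-NI replicate 1, 111 and 551 without KO-NI replicate 2 and 0 and 15 without KO-I/R 3D replicate 1. In an alternative chosen after seeing the data, limma voom without KO-NI replicate 1 called 2 genes larger (Col5a2 and Noct) and 1 smaller (Foxq1), and without KO-NI replicate 2 it called 195 and 375.

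The labels do not say whether same-numbered libraries share animals or days, and they deviated together only weakly (correlations of 0.03 to 0.17). With the replicate number as a block, 0 genes were called in either direction and 647 and 1020 passed the unadjusted threshold.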
